A study of Mus musculus with 8 samples.

Results

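The genes of the endoplasmic reticulum (ER) stress and unfolded protein response were followed in the liver of miR-223 knockout (miR-223KO) and wild-type (WT) mice. The list held 34 genes, and its members were the probes of the authors' deposited table that carry one of these symbols or a synonym of it. That rule found 31 of the 34 genes, through 55 probes. The deposited table held 40554 of the 41174 probes on the array. The array as a whole carried 21450 named genes. Atf4, Calr and Hsp90b1 were not found by the rule. Of the 31 genes, 27 entered the test among 16750 genes and unnamed probes in all, and Xbp1, Dnajb11, Pdia4 and Herpud1 did not, because too many of their spots had an outlier flag.

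The 4 miR-223KO samples were liver RNA of male C57BL/6J mice that lack the microRNA miR-223 and ate a high-fat diet for 3 months. The 4 WT samples came from male C57BL/6J mice with the same diet for the same time, so the diet was shared and no group on another diet was compared. Each sample was labelled with Cy5 and hybridised to its own 2-colour Agilent array against a commercial mixture of mouse tissue RNA in Cy3, with no dye swap. Whether the knockout covers all cells or how the allele was made was not given in the sources used here. The labels also leave it unsaid whether every sample is a mouse of its own, and if they are not, the p-values cover technical spread alone.

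The unfolded protein response is the set of signals by which a cell adjusts the folding capacity of the ER to its load of secretory and membrane proteins. IRE1 (Ern1) splices the Xbp1 transcript, PERK (Eif2ak3) phosphorylates eIF2alpha and so favours translation of Atf4, and ATF6 is cut in the Golgi to release a transcription factor. The targets of these arms include ER chaperones, disulfide isomerases, the machinery of ER-associated degradation and, through ATF4 and CHOP (Ddit3), amino acid and stress genes. Hepatocytes secrete most plasma proteins, and ER stress is a known feature of fatty liver.

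The microRNA that the knockout removes and the promoter element that many members share are shown first. The mature miR-223-3p and miR-223-5p are printed as in RefSeq (GRCm38.p6, chromosome X, plus strand), with the seed, bases 2 to 8, in capitals. No probe on the array carried the microRNA, so its loss could not be checked.

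miR-223-3p: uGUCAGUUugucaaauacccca
miR-223-5p: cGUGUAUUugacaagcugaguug

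The ER stress response element (ERSE), to which ATF6 binds together with the CCAAT factor NF-Y, was searched on both strands of the RefSeq promoters as the box CCAAT, any 9 bases and the box CCACG, from 250 bases before to 50 bases after each start site. Of the 34 listed genes, 30 had a promoter entry. Hyou1, Atf6, Manf and Derl1 had none. The element stood in the promoter of 10 of the 30 genes (33.3%), against 37 of 27025 genes in all (0.137%). These were Hspa5, Hsp90b1, Calr, Canx, Dnajc3, Creld2, Pdia6, Ero1b, Syvn1 and Derl3, with a pair of matches in Hsp90b1. The shorter ERSE-II (ATTGG, any base and CCACG), searched in the same way, stood in Dnajb11 and Herpud1, against 12 of the 27025 genes (0.044%). The UPRE core (TGACGTGG, 0.714% of genes) had no match in these windows of the listed genes. The composite element of ATF4 was searched only as TGATGNAAT (1.08% of genes), with no match there, and other forms of it were not searched. Such matches describe the letters of the promoter and not binding in these livers. The stretches around the element are given below for the 4 genes whose values are followed most closely, in GRCm38.p6 and 5′ to 3′ on the gene's strand, with the element in capitals. In Creld2 it lies on the opposite strand.

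Hspa5, chr2:34772005-34772063: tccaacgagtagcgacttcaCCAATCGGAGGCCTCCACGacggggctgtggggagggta
Canx, chr11:50325780-50325838: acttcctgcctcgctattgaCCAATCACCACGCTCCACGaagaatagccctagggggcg
Creld2, chr15:88819500-88819558: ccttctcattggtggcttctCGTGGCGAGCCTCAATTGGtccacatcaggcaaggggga
Syvn1, chr19:6046512-6046570: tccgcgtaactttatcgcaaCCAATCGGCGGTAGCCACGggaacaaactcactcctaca

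No member passed the test between miR-223KO and WT liver. With limma and Benjamini-Hochberg adjustment over all 16750 features, 0 of the 27 members had an adjusted p under 0.05, where 0.0119% of all features did (2 genes, Ctse higher and Slco1a1 lower), and the members' adjusted p lay between 0.98 and 0.999. At an unadjusted p under 0.05 stood 2 of the 27, Creld2 higher and Canx lower, where 4.67% of all features did. The sign of the difference was positive for 17 members and negative for 10, against 48.2% and 51.8% of all features. With median centring in place of loess the negative signs were 5, against 36.1% of all features. The median log2 fold change, miR-223KO minus WT, was 0.05 for the members and -0.01 for all features, and the median size without regard to sign was 0.153 and 0.148. For no member did all miR-223KO values lie to one side of all WT values, as they did for 3.09% of all features.

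The precision sets how far this reaches. The standard error (SE) of the members' log2 fold changes ran from 0.182 to 0.343, with a median of 0.237, against 0.207 over all features. For 25 of 27 members the 95% interval of the difference lay within a 2-fold change in either direction, as for 95.6% of all features, and the exceptions were Creld2 and Canx. The intervals hold for the ratios as measured, and whether the arrays understate differences in expression was not tested.

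**Figure D1:**
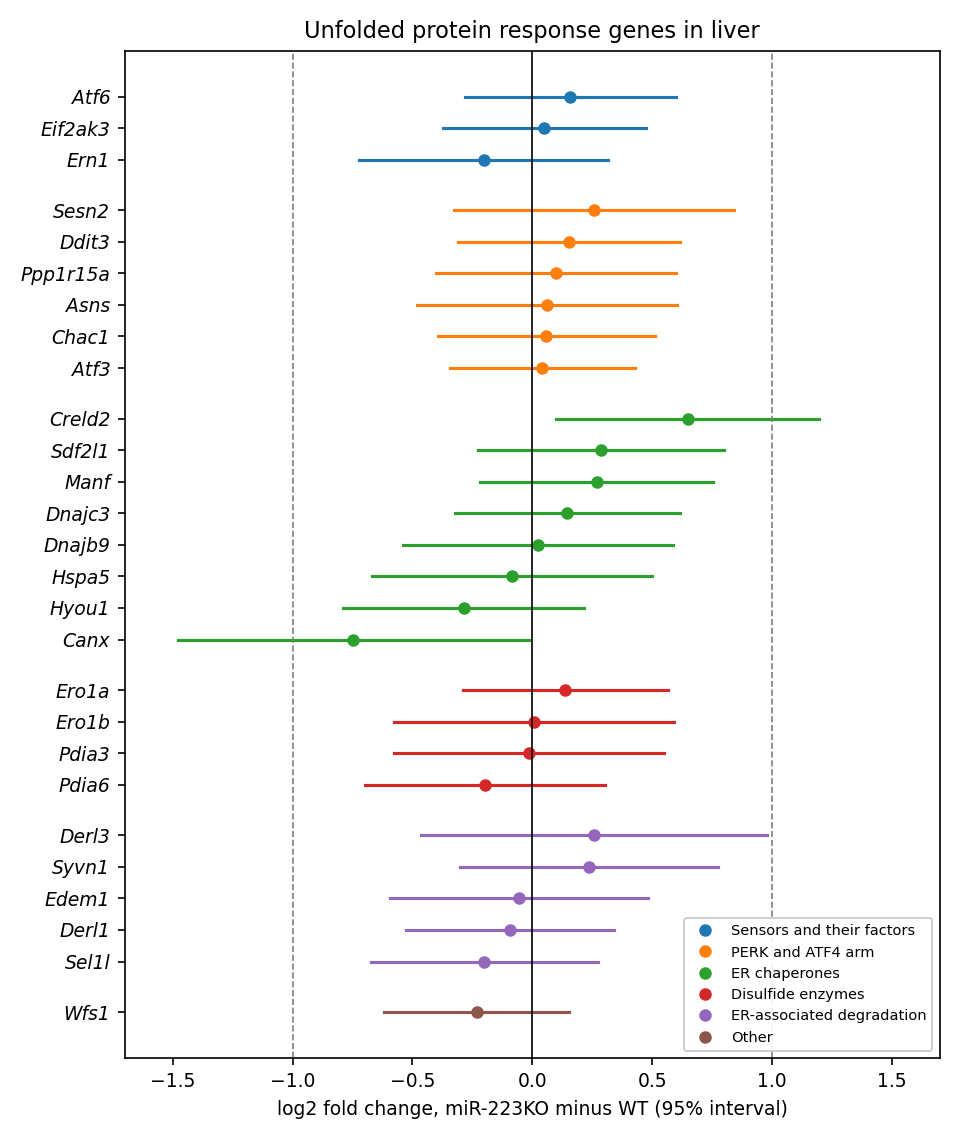
Log2 fold change of the 27 members tested, miR-223KO minus WT, with 95% intervals from limma, grouped by role; dashed lines mark a 2-fold change. Only the intervals of Creld2, 0.098 to 1.198, and Canx, -1.478 to -0.014, leave out 0, and neither passed the adjusted test.

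None of the 3 stress sensors tested passed, and their differences were between -0.202 and 0.158. Atf6, the precursor of the ATF6 factor, had log2 ratios of liver over the tissue mixture of 0.41, 0.95, 0.60 and 0.43 in miR-223KO livers, against 0.43, 0.91, 0.15 and 0.26 in WT livers. One sample of each group stood near the top, both replicate 2, and the groups overlapped, with a log2 fold change of 0.158 (SE 0.208). Ern1 had 0.21, -0.30, -0.51 and -0.47 in miR-223KO livers, against 0.65, -0.21, -0.48 and -0.21 in WT livers. In both groups replicate 1 was the highest, and the log2 fold change of this kinase and nuclease was -0.202 (SE 0.245). Eif2ak3, the kinase of eIF2alpha, differed by 0.05 (SE 0.2).

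Xbp1, whose spliced form encodes the factor of the IRE1 arm, had an outlier flag on its only probe in miR-223KO replicates 3 and 4. With flagged spots kept, its log2 ratios were -0.35, 0.03, 0.12 and -0.03 in miR-223KO livers, against 0.29, 0.17, -0.39 and 0.52 in WT livers. The groups overlapped, and the log2 fold change was -0.206 (SE 0.213, limma adjusted p = 0.978). No splice form could be told apart with this probe. Atf4, the factor of the PERK arm, lies outside the rule but had a probe in the scanner files, flagged on 2 miR-223KO and 3 WT arrays. Kept as measured, it had log2 ratios of 0.27, 0.28, 0.34 and -0.20 in miR-223KO livers, against 0.87, -0.11, -0.56 and -0.17 in WT livers, a difference of 0.168 (SE 0.263). Much of the control of ATF4 is at translation, which these arrays do not measure.

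The 6 targets of the PERK and ATF4 arm were all higher by sign, by 0.042 to 0.257, and none passed. By the scanner's own LogRatio or the authors' deposited values 4 of the 6 were higher. Ddit3, which encodes the pro-apoptotic factor CHOP, had log2 ratios of -0.09, 1.03, 0.26 and 0.59 in miR-223KO livers, against 0.30, 0.28, 0.30 and 0.30 in WT livers. The miR-223KO values were spread on both sides of 4 nearly equal WT values (SD 0.477 in miR-223KO and 0.008 in WT, n = 4 each). The log2 fold change was 0.153 (SE 0.219, limma adjusted p = 0.985).

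Sesn2, a stress-induced inhibitor of mTORC1 signalling, had 0.04, 0.34 and 0.90 in miR-223KO replicates 1, 2 and 4, against -0.48, 0.16, 0.34 and 0.66 in WT livers, a difference of 0.257 (SE 0.274). The highest miR-223KO value stood above all WT values and the others lay among them. With flagged spots kept this probe gave 0.077 and the other bright probe -0.43. Ppp1r15a, the subunit of the phosphatase that reverses the phosphorylation of eIF2alpha, differed by 0.099, and Asns, the asparagine synthetase, by 0.06. Chac1, which breaks down glutathione, differed by 0.059 and the stress factor Atf3 by 0.042. Without miR-223KO replicate 4 the signs of this group were 3 higher and 3 lower, as they were without miR-223KO replicate 3 or without WT replicate 2.

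**Figure D2:**
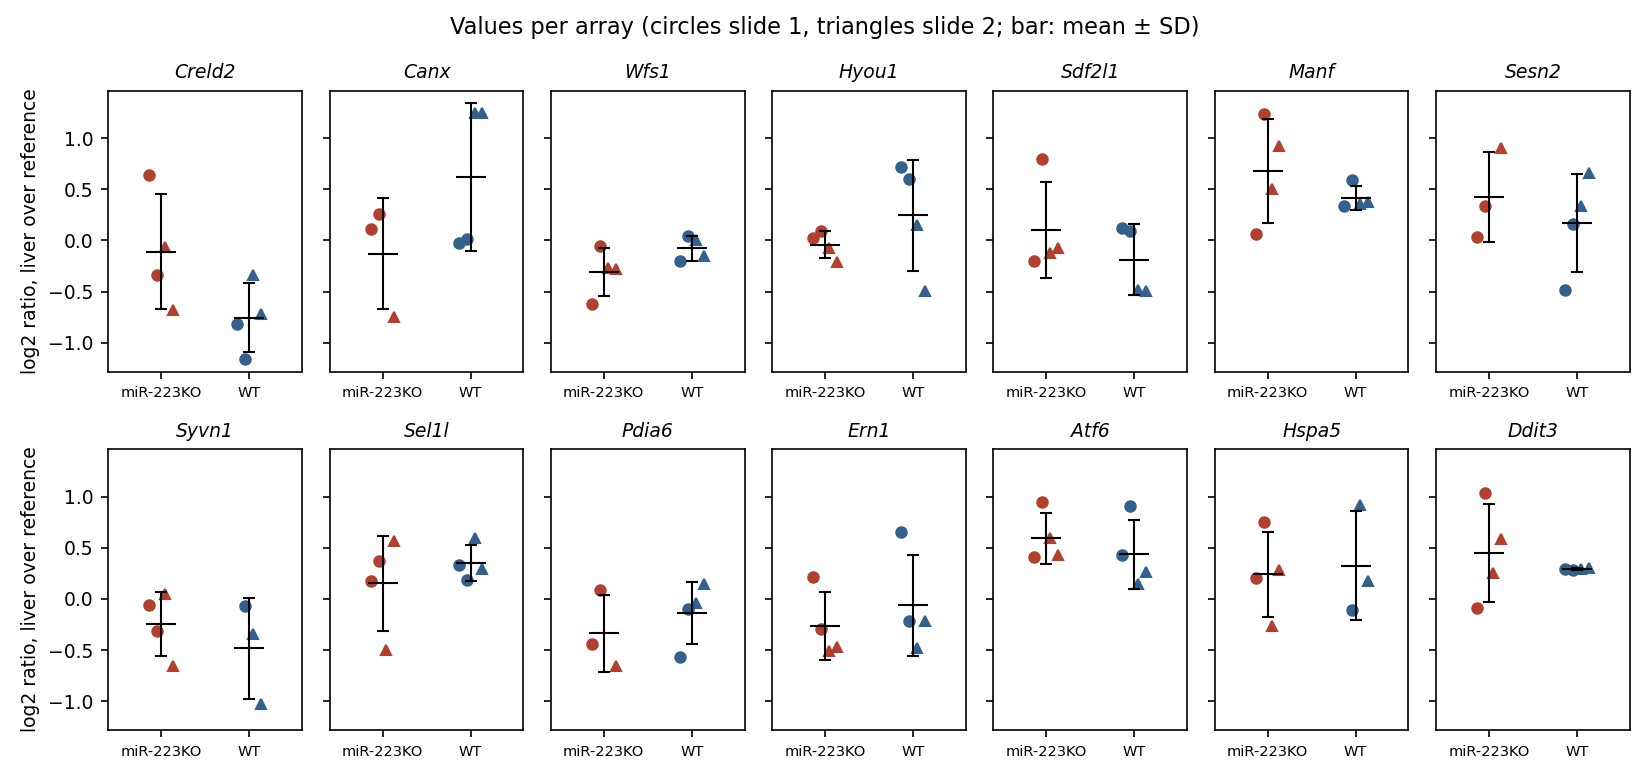
Log2 ratio of liver RNA over the tissue mixture on each array, miR-223KO left and WT right, for 14 members; circles are slide 1, triangles slide 2, and bars the mean ± SD of 3 or 4 arrays. The groups overlap for each gene, and Ddit3 shows 4 nearly equal WT values.

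The ER chaperones and co-chaperones held the 2 members with the largest differences, in opposite directions. Creld2, a disulfide isomerase-like protein that is a known marker of ER stress, had log2 ratios of 0.65, -0.34, -0.06 and -0.68 in miR-223KO livers, against -0.82, -1.16, -0.34 and -0.72 in WT livers. Its mean was -0.11 ± 0.56 in miR-223KO and -0.76 ± 0.34 in WT (SD, n = 4 each), with miR-223KO replicate 1 far above every WT value and replicate 4 among them. The log2 fold change was 0.648 (SE 0.259, unadjusted p = 0.0237, limma adjusted p = 0.98), with 1.139 on slide 1 and 0.157 on slide 2. Without miR-223KO replicate 1 it was 0.397.

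Canx, the lectin chaperone calnexin, had 0.11, 0.26 and -0.75 in miR-223KO replicates 1, 2 and 4, against -0.03, 0.01, 1.25 and 1.24 in WT livers. The WT values split by slide, with both slide 2 arrays high, and the only unflagged miR-223KO value of that slide was the lowest of all. The log2 fold change was -0.746 (SE 0.343, unadjusted p = 0.0462, limma adjusted p = 0.98), with 0.192 on slide 1 and -1.997 on slide 2. Without miR-223KO replicate 4 it was -0.434, and the other probe of Canx gave -0.29.

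Hspa5 encodes BiP, the ER chaperone that holds the sensors inactive and is the most used marker of this response. It had log2 ratios of 0.20, 0.75, -0.26 and 0.28 in miR-223KO livers, against -0.11, 0.92 and 0.17 in WT replicates 2, 3 and 4. The ranges of both groups overlapped almost whole, with WT replicate 1 left out for an outlier flag. The log2 fold change was -0.085 (SE 0.274, 95% interval -0.67 to 0.5), with 0.584 on slide 1 and -0.537 on slide 2. The slide 1 value set miR-223KO against WT replicate 2 alone. With flagged spots kept, WT replicate 1 had 0.87 and the log2 fold change was -0.222 (SE 0.264). In the authors' deposited table it was -0.314.

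Hyou1, a large ER chaperone of the Hsp70 family, had 0.02, 0.10, -0.08 and -0.21 in miR-223KO livers, against 0.71, 0.60, 0.15 and -0.49 in WT livers. The miR-223KO values lay close together inside the wide WT range, and the log2 fold change was -0.287 (SE 0.237). In the authors' deposited table its other probe has a log2 fold change of 1.374, the only one beyond a 2-fold change among the 55, and that probe was well above background on 1 miR-223KO array and on no WT array.

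Sdf2l1, a partner of BiP and its J-domain proteins, had -0.20, 0.80, -0.13 and -0.08 in miR-223KO livers, against 0.13, 0.09, -0.49 and -0.49 in WT livers. Only miR-223KO replicate 2 stood above the WT range, and the log2 fold change of 0.288 (SE 0.242) was 0.055 without it. Manf, an ER protein that is secreted under stress, had 0.06, 1.24, 0.50 and 0.93 in miR-223KO livers, against 0.33, 0.59, 0.36 and 0.37 in WT livers. The miR-223KO values lay both below and above the narrow WT range, and the log2 fold change of 0.268 (SE 0.229) was 0.083 without replicate 2. The J-domain co-chaperones Dnajc3 and Dnajb9 differed by 0.146 and 0.024.

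Among the disulfide enzymes, Pdia6, a protein disulfide isomerase, had -0.44, 0.08 and -0.66 in miR-223KO replicates 1, 2 and 4, against -0.57, -0.10, -0.04 and 0.15 in WT livers. The groups overlapped, with a log2 fold change of -0.199 (SE 0.235). Pdia3, the isomerase that works with calnexin and calreticulin, differed by -0.014. The oxidases that recharge these isomerases, Ero1a (listed as Ero1l) and Ero1b (listed as Ero1lb), differed by 0.138 and 0.007.

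In ER-associated degradation, Syvn1, the ubiquitin ligase HRD1, had -0.06, -0.32, 0.05 and -0.66 in miR-223KO livers, against -0.07, -0.35 and -1.03 in WT replicates 2, 3 and 4. The groups overlapped, with a log2 fold change of 0.235 (SE 0.252), and with -0.121 on slide 1 and 0.385 on slide 2. With flagged spots kept this probe gave 0.141 and the other bright probe of Syvn1 -0.218. Sel1l, the partner of Syvn1, had 0.18, 0.37, -0.50 and 0.57 in miR-223KO livers, against 0.33, 0.18, 0.60 and 0.30 in WT livers. Apart from the low miR-223KO replicate 3 the values were alike in range, and the log2 fold change was -0.2 (SE 0.223). The channel component Derl3 differed by 0.258, with 1.165 on slide 1 and -0.648 on slide 2. Derl1 differed by -0.092 and Edem1, which hands misfolded glycoproteins to degradation, by -0.056.

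Wfs1, the ER membrane protein wolframin, had -0.62, -0.06, -0.27 and -0.28 in miR-223KO livers, against -0.20, 0.04, 0.01 and -0.16 in WT livers. Of the 4 miR-223KO values, 3 lay below the WT range, and the log2 fold change was -0.231 (SE 0.182, limma adjusted p = 0.98). It was negative on both slides, at -0.259 and -0.203, and the probe was well above background on 3 of 4 WT arrays.

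The genes left out for outlier flags did not pass with those spots kept. Dnajb11, a J-domain partner of BiP, then differed by 0.041, the disulfide isomerase Pdia4 by -0.006 and Herpud1, an ERAD component, by -0.195. Calr (calreticulin) and Hsp90b1 (GRP94), which stand outside the rule and were flagged on all 8 arrays at their brightest probe, differed by -0.195 and 0.034. Their other probes, each flagged on 3 miR-223KO and 3 WT arrays, gave 0.084 for Calr and 0.086 for Hsp90b1. With flagged spots kept, 0 of the 31 genes found by the rule passed, where 0.00563% of 17776 features did.

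The sign of the difference often turned from slide to slide. Each of the 2 slides held 2 arrays of each group, and 18 of 27 members had differences of opposite sign on them, against 54.8% of all features. Hspa5, Derl3, Pdia3 and Canx were higher in miR-223KO on slide 1 and lower on slide 2, and Ero1b, Edem1 and Dnajb9 the other way round. Outlier flags left some members with 1 array of a group on a slide. Hspa5 lacked WT replicate 1 on slide 1, and Pdia3 and Canx lacked miR-223KO replicate 3 on slide 2. With slide as a block in limma, no member passed either. The lowest adjusted p was 0.928, for Creld2 and Canx, and of these Creld2 alone kept an unadjusted p under 0.05 (0.0286, against 0.07 for Canx).

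**Figure D3:**
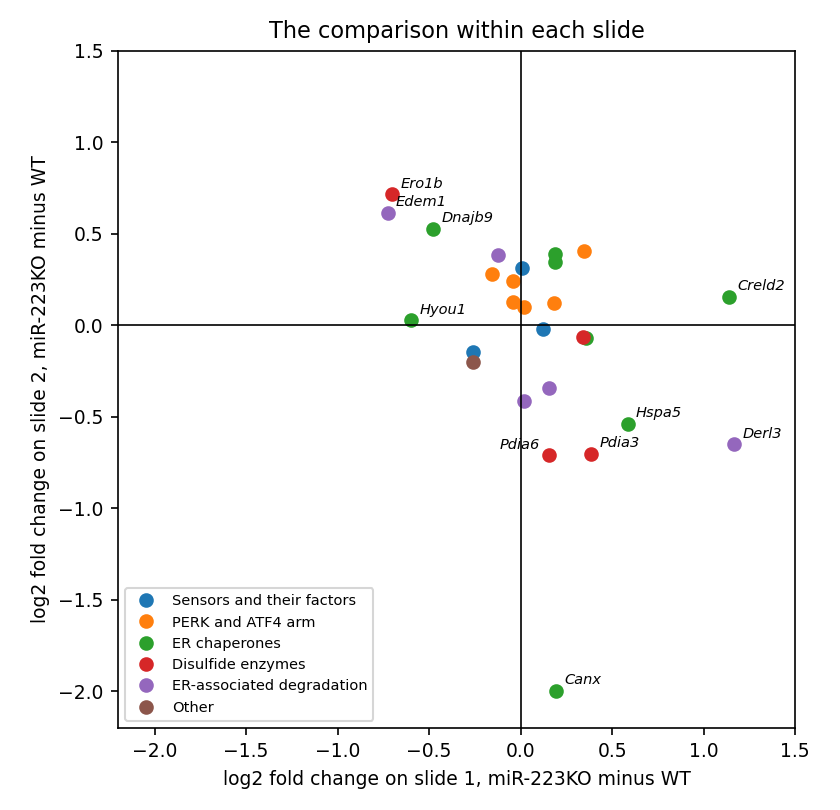
Log2 fold change, miR-223KO minus WT, within slide 1 (horizontal) and within slide 2 (vertical), 1 point a member, coloured by role. The points of 18 of 27 members lie in the upper left and lower right, where the slides differ in sign.

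Correlations between members across the arrays went in both directions. Over the 351 pairs of members, the median correlation of their deviations from the group means was 0.002, with a range of -0.886 to 0.96, over 8 arrays that share the reference RNA. The correlation was above 0.5 in 65 pairs and below -0.5 in 49, and the shares over all pairs of features were not computed. The median log2 ratio of the members was -0.064, 0.083, -0.093 and -0.076 on the miR-223KO arrays, against -0.184, 0.011, -0.043 and -0.041 on the WT arrays. Of the 22 members with all 4 miR-223KO values, 11 were highest in miR-223KO replicate 2 (Manf, Ddit3 and Hspa5 among them), the array with the lowest share of spots above background in that group. In miR-223KO replicate 1, 10 of the 22 were lowest. Of the 25 members with all 4 WT values, 9 were highest in WT replicate 4 and 9 were lowest in WT replicate 1. The same shares over all features were not computed. The part of these arrays in the members' values was not tested.

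Probes of the same gene also disagreed. Of 12 members with several bright probes, 4 (Canx, Dnajb9, Ero1a and Sel1l) had the same sign at each probe. Over the 33 pairs of such probes the median correlation across the 8 arrays was 0.083, and 13 were negative. The probes of Pdia6 ran from -0.287 to 0.339 and those of Dnajc3 from -0.153 to 0.293.

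**Figure D4:**
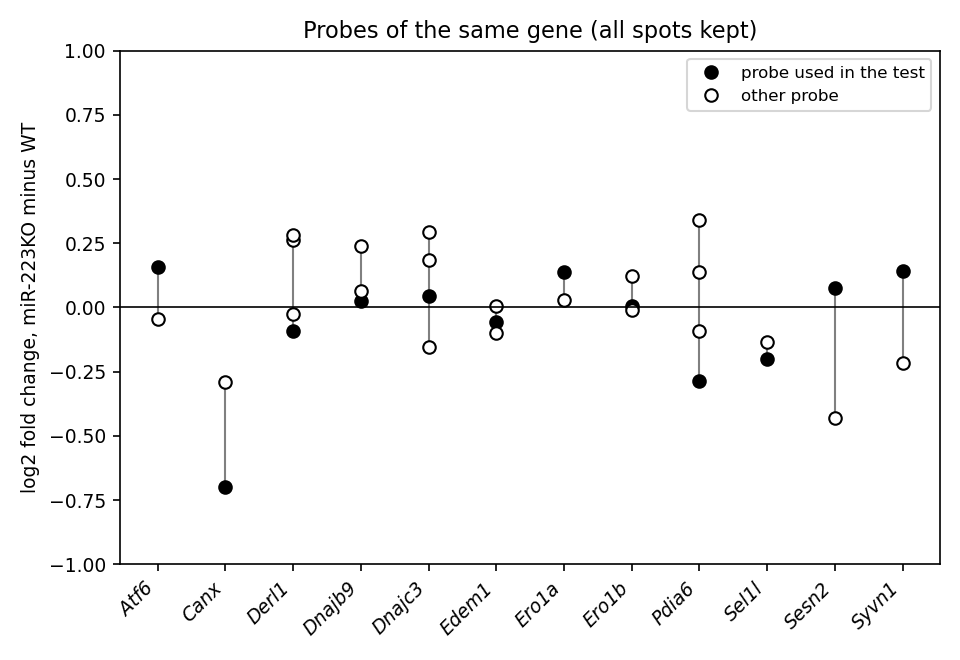
Log2 fold change, miR-223KO minus WT, of each bright probe of the 12 members with several, flagged spots kept; filled circles are the probe used in the test, open circles the others. The probes of 8 of the 12 genes lie on both sides of 0.

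Members with and without the ERSE had close medians, which were not compared by a test. The 8 members tested with the element had a median log2 fold change of 0.076 and 5 positive signs, and the 15 tested with a promoter entry but without it had a median of 0.05. Of all 37 genes with an ERSE in the promoter, 18 were tested, 0 passed, 13 were higher and 5 lower, with a median of 0.076.

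The rest of the pathway, taken from lists that do not hold the members, gave no call either. In the list of other sensing genes 17 were tested, with 9 higher, 8 lower and a median of 0. The smallest p were those of the site proteases that release ATF6, Mbtps2 at -0.337 (SE 0.205) and Mbtps1 at 0.319 (SE 0.214). Each changed sign between the slides, with -0.748 on slide 1 and 0.074 on slide 2 for Mbtps2, and -0.076 and 0.715 for Mbtps1. Of 26 other targets of ATF4 and the integrated stress response, 14 were higher and 12 lower. Pck2, the mitochondrial PEP carboxykinase, had -0.632 (SE 0.257, limma adjusted p = 0.98), and -0.336 without WT replicate 3. Slc7a5, an amino acid transporter, had 0.454 (SE 0.215, limma adjusted p = 0.98), and 0.296 without WT replicate 1.

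Of 38 other folding enzymes, 18 were higher and 20 lower. Txndc5, a disulfide isomerase, had 0.424 (SE 0.182) and Rcn1, an ER calcium-binding protein, 0.366 (SE 0.173), each with all miR-223KO values above all WT values and an adjusted p of 0.98 in limma. Among 25 other ERAD genes 20 were higher and 5 lower, with a median of 0.069, and 13 of 25 were higher when flagged local backgrounds were kept. Ubxn4, which tethers the segregase VCP to the ER, had 0.82, -0.08 and 0.05 in miR-223KO replicates 1, 2 and 3, against -0.33, -0.38, -0.67 and -0.37 in WT livers. The groups did not overlap, as for 3.09% of all features, and the log2 fold change was 0.702 (SE 0.234, limma adjusted p = 0.98). Without miR-223KO replicate 1 it was 0.422. Ube2g2, an ubiquitin-conjugating enzyme, had 0.427 (SE 0.181).

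In translocation and signal processing 28 genes were tested, with 20 higher, 8 lower and a median of 0.085. Without WT replicate 4 the signs were 14 and 14 and the median -0.002. At an unadjusted p under 0.05 in limma, 3 of the 28 were higher and 1 lower, where 4.67% of all features were under that bound. Srp54a, a subunit of the signal recognition particle, had 0.597 (SE 0.213) and Spcs2, of the signal peptidase, -0.531 (SE 0.206), and neither passed (limma adjusted p = 0.98 for each). Of 13 heat shock genes tested 12 were higher by sign, with a median of 0.254 against -0.01 for all features, and none passed. The mitochondrial genes of that list, Hspd1, Hspe1 and Hspa9, were not among the 13. With flagged spots kept 15 of 19 were higher, with a median of 0.114, and with the probes of each gene averaged 10 of 13. Stip1, which links Hsp70 and Hsp90, had 0.515 (SE 0.254), and 0.298 without miR-223KO replicate 2. Hspa4, an Hsp70 family nucleotide exchange factor, had 0.15, 0.14, 0.24 and 0.11 in miR-223KO livers, against 0.14, -0.14, 0.23 and -1.05 in WT livers. The difference of 0.367 (SE 0.243) was 0.085 without the low WT replicate 4. Per array the mean log2 ratio of these 13 genes ran from -0.129 to 0.288 in miR-223KO and from -0.332 to 0.043 in WT, and within the slides 9 and 7 of the 13 were higher.

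Marker lists of the cell types that whole liver can hold, and of pancreas, stood as follows beside these values. The 17 hepatocyte markers on the array were above background on all 8 arrays. The 7 of them that could be tested were all lower in miR-223KO by sign, with a mean log2 ratio of 0.371 to 0.789 per miR-223KO array, against 0.896 to 1.885 per WT array. Flagged spots were left out of these means, so some arrays averaged fewer of the 7 genes. With flagged spots kept, the means of all 17 ran from 0.36 to 0.865 in miR-223KO and from 0.651 to 1.19 in WT, which overlap. Among these 17, Alb had a mean log2 ratio of 1.677 in miR-223KO and 2.338 in WT. Others stood near the level of the tissue mixture, such as Hnf4a (-0.148 and -0.128) and Ttr (0.067 and 0.239). The median log2 fold change of the 7 was -0.55, with -0.173 within slide 1 and -0.889 within slide 2. With median centring in place of loess it was -0.142. Within each slide and with median centring, 1 of the 7 was higher. The 12 endothelial markers ran from -0.011 to 0.09 in miR-223KO and from -0.274 to -0.034 in WT, with 9 higher and 3 lower. B and plasma cell markers, of cells rich in ER, ran from -0.088 to 0.099 in miR-223KO and from -0.087 to 0.046 in WT, with 4 higher and 4 lower of 8 tested, and 4 of 12 were above background on all arrays. Kupffer cell markers were higher for 9 of 12, at -0.059 to 0.32 in miR-223KO and -0.331 to 0.446 in WT. Within slide 1 they were higher for 10 of 12 and within slide 2 for 5 of 12. Cholangiocyte markers were higher for 2 and lower for 6 of 8, at -0.328 to -0.017 in miR-223KO and -0.049 to 0.09 in WT. Of these 8, 5 were higher within slide 1, 3 within slide 2 and 4 with median centring. Markers of the exocrine pancreas, also rich in ER, were lower for all 6 tested, at -0.169 to 0.077 in miR-223KO and -0.019 to 0.317 in WT, and 5 of 10 were above background on all arrays. With median centring 3 of the 6 were higher. Monocyte and macrophage markers were higher for 7 of 11, at 0.036 to 0.37 in miR-223KO and -0.132 to 0.148 in WT, neutrophil markers for 4 of 9 and stellate cell markers for 5 of 12. In whole liver, fewer cells of a type and less RNA per cell cannot be told apart, and the part of cell makeup in the members' values was not tested. In Cy5 between 49.5% and 69.8% of spots were well above background, and no spot was saturated.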

How the data were processed

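The genes and lists were chosen with earlier results of these data known. Per the file headers, the authors' scanner files (Agilent Feature Extraction 12.0.3.1) hold median signals as intensity and a LogRatio as log10 of Cy5 over Cy3. The authors' deposited table holds log2 ratios of the processed signals. Its median absolute difference from LogRatio turned to log2 was 4.46e-07, with a correlation of 0.933, so some probes differ.

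Here, median signals were corrected with normexp (offset 50, flagged local backgrounds replaced by the median of the others) and normalised by loess within arrays, in limma 3.58.1 under R 4.3.3. Outlier-flagged spots were left out. A probe was kept if 4 or more of the 8 arrays had its Cy5 well above background and each group had 3 or more values, with the brightest probe for each gene. Groups were compared with lmFit and eBayes (two-sided, Benjamini-Hochberg over 16750 features, threshold 0.05). The procedure was tested on simulated data. The number of arrays limits the precision.

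Values per sample are given for the 12 members with the smallest p and for Hspa5, Xbp1, Atf4 and Ddit3. From each pathway list come the 2 genes with the smallest p. Promoter and microRNA sequences are RefSeq's (GRCm38.p6). Alternatives covered background, normalisation, filters, probe choice, slide, replicate number and each sample left out.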

Additional observations from a re-analysis of the deposited data

Results flagged for a closer look

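In 47 groups of 4 values (members with 4 measured values in a group), 4 values stood apart from the other 3 by more than Dixon's 95% critical value, and chance flags about 1 in 20 such groups. Sdf2l1 had a log2 ratio of 0.797 in miR-223KO replicate 2, with the next value at -0.076. Ero1a had 0.4 in miR-223KO replicate 1, with the next at -0.172. Manf had 0.589 in WT replicate 2, with the next at 0.372. Ppp1r15a had 0.553 in WT replicate 3, with the next at -0.118.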

How the results depend on the processing

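No member was called under any of 26 alternatives, with a lowest adjusted p of 0.753 (Creld2 with flagged local backgrounds kept). Among them, scan as a block repeats slide as a block and Aquantile leaves the log ratios as they are. With every probe tested on its own, members were still read at their brightest probe. Their fold changes could not change there, and their other probes were not checked for a call. Over all features 2 genes were called, against 4 with an offset of 16, and 1 with the LogRatio column, the authors' table, flagged backgrounds kept, median centring, flagged spots kept or probes averaged by gene. Leaving out 1 sample gave 2 to 4 calls (4 without miR-223KO replicate 1), 0 members called, 10 to 14 members lower and a member median of -0.0145 to 0.0879. Median centring in place of loess gave a member median of 0.223 and 5 members lower, where the median of all features was 0.0812 and 36.1% of them were lower, and its 1 call was higher. Of 27 members 7 (Atf6, Canx, Creld2, Hyou1, Manf, Sdf2l1 and Wfs1) kept their sign under each such alternative that tested them (Wfs1 under 25), and the others, Hspa5 included, changed it under at least 1. The sign held at a much smaller size for Manf (0.083), Sdf2l1 (0.055) and Atf6 (0.042) without miR-223KO replicate 2. The same was so for Wfs1 (-0.126) without miR-223KO replicate 1. For Hyou1 the value was -0.13 without WT replicate 1 and -0.074 with the LogRatio column or the authors' table. The authors' table had 15 of 31 members lower (48.4%, against 49.9% of its features). The causes were not tested. Scan as a block, and flagged spots kept with slide as a block, were added after seeing the data. Same-numbered samples did not deviate together (correlations of -0.027 to 0.058). With the replicate block 2 genes and 0 members were called, the member median was 0.0498 and 10 members were lower.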
